A study of Mus musculus with 12 samples.

Results

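Cytosolic ribosomal protein genes were taken as all rows of the count table that are annotated as protein coding and have a symbol of the form Rpl or Rps with a number (and at most an a, x or y), Rplp0 to Rplp2 or Rpsa. They are 76 of 56748 genes, 46 of the large subunit (symbols starting with Rpl) and 30 of the small subunit (Rps), and the files describe all 76 as ribosomal proteins. RNA came from kidneys of wild-type mice (C57bl/6-wt in the labels). Mice of all 3 groups were given cisplatin, which treats tumours and damages tubules. The pFUS_UC group also had pulsed focused ultrasound and mesenchymal stem cells from umbilical cord. The UC group had such cells without ultrasound. The AKI group (acute kidney injury) had cisplatin alone. Each group held 4 samples. The sources used here give no species of the cells, dose, sampling time, age or sex. The study as analysed here has no uninjured kidney and no kidney with ultrasound alone. The labels do not say that samples are separate animals, so p-values measure the spread between these samples. Where kidneys are counted below, samples are meant. AKI samples carry another kind of sample code (KR with a number) than the other samples (K with a number), so batch and injury without cells cannot be told apart.

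Cytosolic ribosomes are built from ribosomal RNA and a large set of small proteins, which most ribosomes need in equal numbers apart from those of the stalk. The large subunit joins amino acids and carries the acidic stalk that recruits elongation factors, and the small subunit reads the messenger RNA. Messenger RNAs for these proteins start with a run of pyrimidines, the terminal oligopyrimidine or TOP tract, through which the kinase mTOR and the RNA-binding protein Larp1 set their translation and stability together. Tubule cells need this machinery to grow and to replace lost proteins.

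Libraries held 17.3 to 25.2 M counts, and the members had 10 to 30872 counts per library. Genes of the kidney tubule marked every library: 10 marker genes (among them Lrp2, Slc34a1, Umod and Aqp2) summed to 10772 to 13630 CPM (counts scaled to library size, with TMM factors) in pFUS_UC, 9362 to 13369 in UC and 12548 to 20227 in AKI kidneys, none at 0. Of these 10, 1 rose and 3 fell in pFUS_UC and 2 rose and 4 fell in UC against AKI. Of all tested genes, 21.9% were called higher and 22.1% lower in pFUS_UC, and 24.1% higher and 24.3% lower in UC, against AKI. Summed CPM of 8 lymphocyte markers was 5.36 to 24.6 in pFUS_UC, 3.04 to 16.03 in UC and 2.11 to 7.45 in AKI kidneys, and that of 5 erythroid markers was 2.97 to 551 in pFUS_UC, 1.17 to 35.2 in UC and 4.16 to 15.2 in AKI kidneys. None of the 13 was at 0 in all libraries, and of the 7 that could be tested 2 rose in pFUS_UC and none in UC. Mitochondrially encoded genes held 12.3 ± 3.67% of counts in pFUS_UC, 14.2 ± 5.17% in UC and 5.0 ± 1.88% in AKI kidneys (SD, n = 4 each). The part of these marker differences in the results was not tested.

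Start regions are shown because ribosomal protein genes are known for the pyrimidine run there, and the members moved together in these data. RefSeq start regions (build GRCm38.p6) were at hand for 56 of the 76 members. Each stretch begins 20 bases before the annotated start and ends 25 bases into the transcript, and capitals mark the unbroken run of C and T from the start base where it opens with C and at least 4 more pyrimidines. Rps27, Rpl38 and Rpl28 were among the members with rises above 1 on the log2 scale, Rps6 and Rpl15 rose less, and Rplp0 and Rps3, without such a run at the annotated base, did not pass the test. Most members without the run did pass it. In pFUS_UC against AKI, 35 of 43 without the run and 11 of 13 with it rose. In UC against AKI, 39 of 43 and 11 of 13 rose. Of all tested genes, 21.9% in pFUS_UC and 24.1% in UC were called higher.
Rps27, chr3:90213624-90213668, minus strand: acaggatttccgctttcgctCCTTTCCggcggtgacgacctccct
Rpl38, chr11:114668560-114668604, plus strand: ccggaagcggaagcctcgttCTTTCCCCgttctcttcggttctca
Rpl28, chr7:4792945-4792989, plus strand: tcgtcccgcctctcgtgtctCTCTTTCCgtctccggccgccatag
Rps6, chr4:86857343-86857387, minus strand: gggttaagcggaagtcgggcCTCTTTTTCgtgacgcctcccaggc
Rpl15, chr14:18270962-18271006, minus strand: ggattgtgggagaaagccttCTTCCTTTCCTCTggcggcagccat
Rplp0, chr5:115559447-115559491, plus strand: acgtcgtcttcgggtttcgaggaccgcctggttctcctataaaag
Rps3, chr7:99483685-99483729, minus strand: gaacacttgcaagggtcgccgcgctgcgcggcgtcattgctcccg
The run was present at an annotated start of 13 of 56 members (23.2%) and of 454 of 17436 other protein-coding genes (2.60%). The letters CTTTCC lay on the transcribed sense strand between 25 bases before and 50 bases after a start in 17 of 56 members (30.4%) and 662 of 17436 other genes (3.80%), and on the other strand in 1 member (1.79%) and 606 other genes (3.48%); this motif can lie inside the run. CCGGAAG, the core bound by ETS-family factors such as GABP, was found on either strand from 250 bases before to 50 after a start in 23 members (41.1%) and 2242 other genes (12.9%). Such matches describe letters at annotated starts, and the windows shown are chosen examples. In pFUS_UC against AKI the median log2 fold change was 1.06 for the 13 members with the run and 0.90 for the 43 without. In UC against AKI these medians were 1.17 and 1.06. The part of the run in the rise was not tested.

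Whether kidneys given cells differed from injured kidneys without them is the question of the comparisons with AKI. Members were higher in both groups that received cells than in AKI kidneys, in large and small subunits alike. They held 2.85, 3.35, 2.96 and 2.90% of counts in pFUS_UC kidneys, 3.43, 2.998, 3.67 and 3.24% in UC kidneys, and 1.94, 1.89, 1.68 and 1.93% in AKI kidneys, so every library with cells lay above every AKI library. Means were 3.01 ± 0.228% in pFUS_UC, 3.33 ± 0.285% in UC and 1.86 ± 0.123% in AKI kidneys (SD, n = 4 each). Of the counts that were not mitochondrially encoded, the members held 3.45 ± 0.367% in pFUS_UC, 3.89 ± 0.329% in UC and 1.96 ± 0.159% in AKI kidneys. In bulk tissue, fewer cells of a type and less RNA per cell cannot be told apart.

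**Figure D1:**
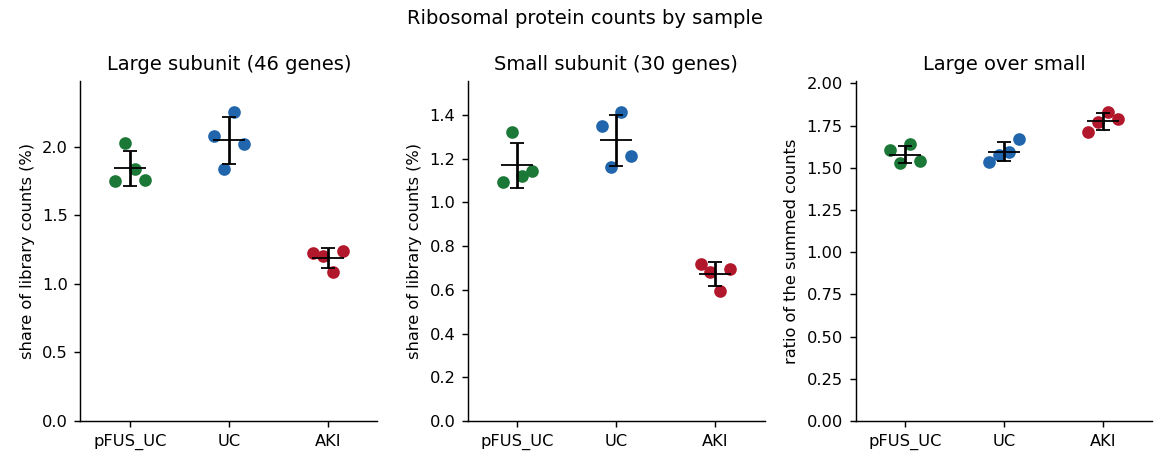
Share of each library's counts (%, y axis) on the 46 large subunit genes (left) and the 30 small subunit genes (middle), and the ratio of their summed counts (right), in pFUS_UC, UC and AKI kidneys. Points are samples, and bars show the mean and SD of 4; both shares are higher and the ratio is lower in all pFUS_UC and UC samples than in all AKI samples.

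Large subunit genes held 1.84 ± 0.127% of counts in pFUS_UC, 2.05 ± 0.173% in UC and 1.19 ± 0.0703% in AKI kidneys, and small subunit genes held 1.17 ± 0.104% in pFUS_UC, 1.29 ± 0.117% in UC and 0.671 ± 0.0539% in AKI kidneys (SD, n = 4 each). The large over small ratio was 1.53 to 1.64 in pFUS_UC, 1.54 to 1.67 in UC and 1.71 to 1.83 in AKI kidneys, so the small subunit share was relatively larger in the kidneys with cells, without overlap with AKI. With the counts of near-identical copies added, described further down, the ratio was 1.56 to 1.62 in pFUS_UC, 1.55 to 1.63 in UC and 1.65 to 1.69 in AKI kidneys, still without overlap and with AKI closer to the others. These ratios are of summed counts, so genes with many counts weigh most. By gene, the median log2 fold change in pFUS_UC against AKI was 0.93 for the large and 0.91 for the small subunit. In UC against AKI these medians were 1.09 and 1.17. A difference between the subunits was not tested.

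In pFUS_UC against AKI, 64 of 76 members rose and none fell in edgeR's quasi-likelihood test with Benjamini-Hochberg adjustment over all 16947 tested genes (threshold 0.05). All 76 members passed the filter on low counts. Of all tested genes 21.9% were called higher and 44% in either direction. The 64 comprised 38 of 46 large and 26 of 30 small subunit genes, and the median log2 fold change was 0.91 over all members, 0.93 for the large and 0.91 for the small subunit, against 0.02 over all tested genes. The lowest pFUS_UC sample lay above the highest AKI sample for 63 members, which held for 19.7% of all tested genes.

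In UC against AKI, 68 of 76 members rose and none fell, where 24.1% of all tested genes were called higher and 48.4% in either direction. They comprised 41 of 46 large and 27 of 30 small subunit genes. Median log2 fold changes were 1.11 for all members, 1.09 for the large and 1.17 for the small subunit, against 0.03 over all tested genes. The interquartile range of the large subunit genes was 0.78 to 1.30 and that of the small subunit genes 0.89 to 1.38, so the subunits overlapped widely. For 65 members the UC samples lay above all AKI samples (20.5% of all tested genes). Both comparisons use the same 4 AKI samples, so they are not independent. With members and mitochondrially encoded genes left out of the scaling, 64 members in pFUS_UC and 68 in UC were called higher, where 22.1% of all tested genes in pFUS_UC and 24.3% in UC were.

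**Figure D2:**
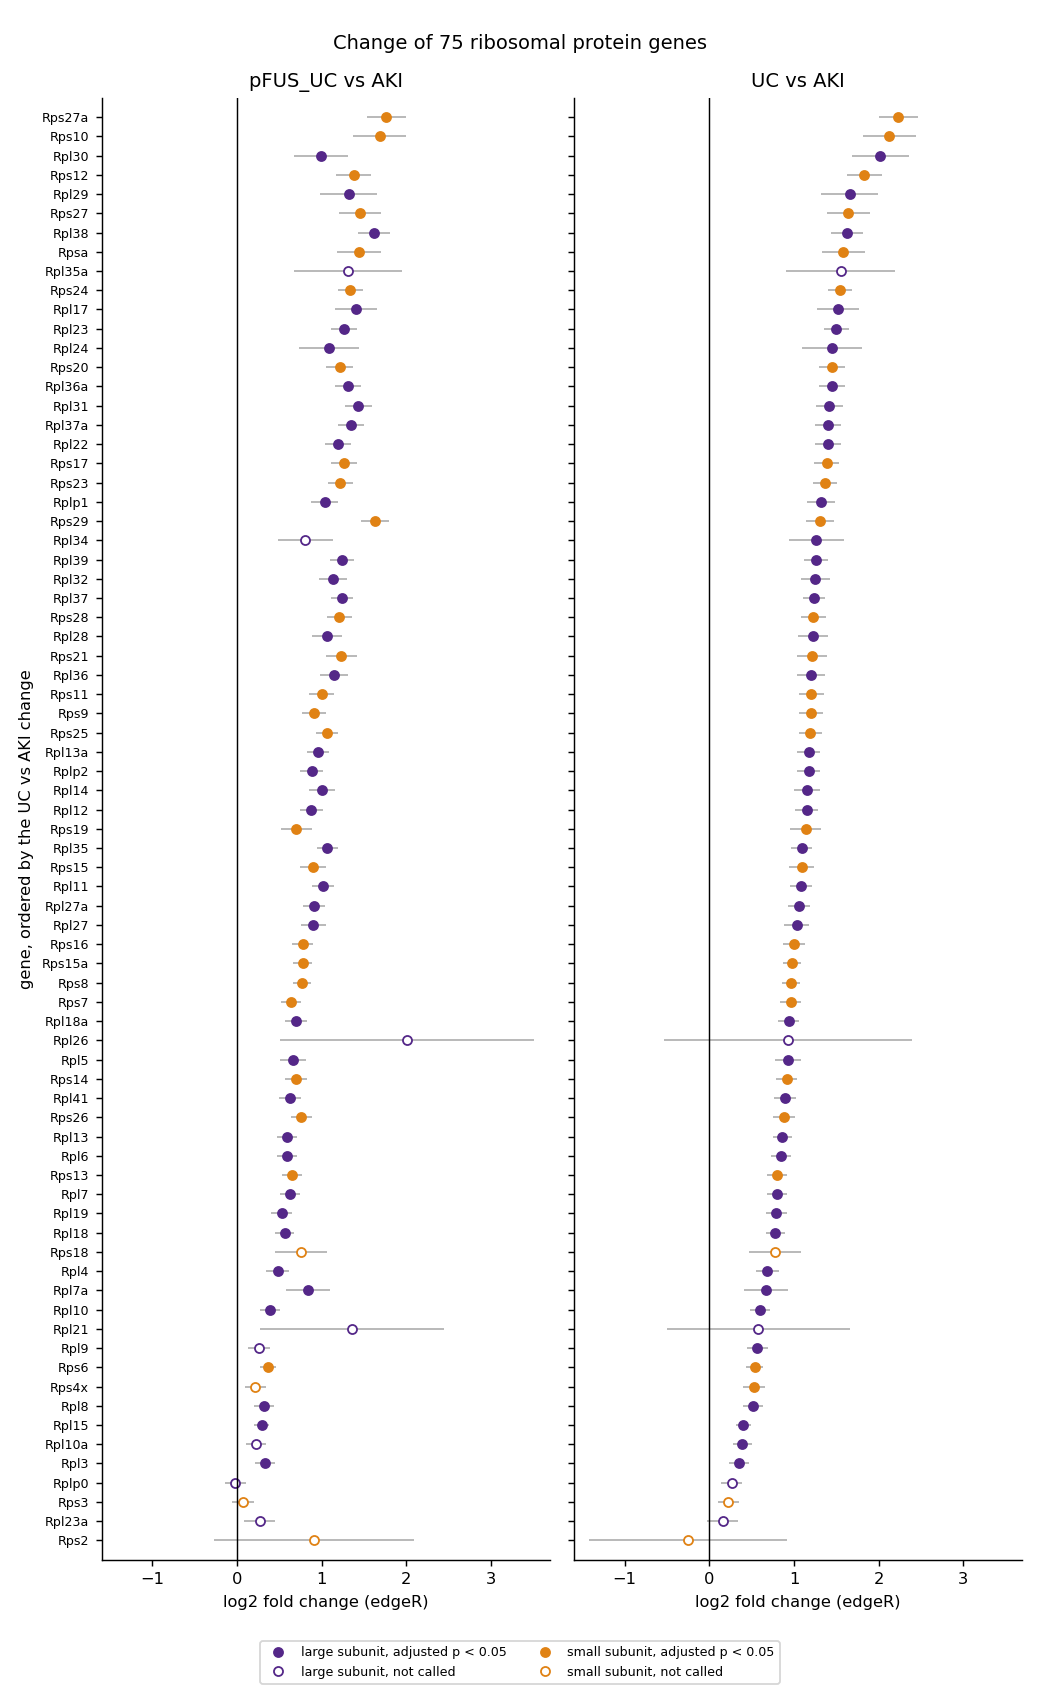
Log2 fold change (x axis, edgeR) of 75 genes (y axis) in pFUS_UC against AKI (left) and UC against AKI (right), with SE as bars. Filled points passed an adjusted p of 0.05 and open points did not; all filled points lie right of 0, and genes are ordered by the change in UC, with Rps27a at the top and Rps2 at the bottom.

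Rps27a, made as a fusion with ubiquitin that is cut to give free ubiquitin and a small subunit protein, had the largest log2 fold change of the called members in both comparisons (ENSMUSG00000020460, chromosome 11, 29495846 to 29498109 on the minus strand, GRCm39). It was at 205, 243, 213 and 193 CPM in pFUS_UC, 263, 382, 376 and 163 CPM in UC, and 77.8, 63.6, 52.4 and 57.7 CPM in AKI kidneys. No AKI value reached the lowest value of the other groups, while UC samples ranged widely. Its log2 fold change was 1.76 (SE 0.23, adjusted p = 0.000121) in pFUS_UC against AKI and 2.23 (SE 0.23, adjusted p = 3.43e-05) in UC against AKI. Fau, a ribosomal protein made as a fusion with a ubiquitin-like protein, lies outside the naming rule. Fau was at 646 ± 82.7 CPM in pFUS_UC, 765 ± 65.9 in UC and 388 ± 38.5 in AKI kidneys. Fau had log2 fold changes of 0.73 (adjusted p = 0.000667) in pFUS_UC and 0.98 (adjusted p = 8.47e-05) in UC against AKI. With offsets for listed length, for transcript length and GC content, or for coding length Fau was at 0.18 (adjusted p = 0.228), 0.25 (adjusted p = 0.0618) and 0.29 (adjusted p = 0.056) in pFUS_UC, not called. Whether the changes of Rps27a and Fau differ was not tested.

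Small subunit genes with small p-values included Rps24 and Rps23, the second of which lies at the decoding centre. Rps24, needed for processing of 18S ribosomal RNA, was at 421, 520.1, 471 and 463 CPM in pFUS_UC, 648, 495, 564 and 454 CPM in UC, and 204, 194, 144 and 199 CPM in AKI kidneys. Rps23 was at 405, 554, 511 and 469 CPM in pFUS_UC, 590.1, 585, 528 and 447 CPM in UC, and 241, 213, 169 and 208 CPM in AKI kidneys. Both were at more than the highest AKI value in all 8 kidneys with cells. Rps24 rose by 1.34 (SE 0.15, adjusted p = 6.26e-05) in pFUS_UC and 1.54 (SE 0.15, adjusted p = 2.58e-05) in UC, and Rps23 by 1.22 in pFUS_UC and 1.37 in UC, all on the log2 scale against AKI. Rps29, one of the smallest ribosomal proteins and a zinc-binding one, was at 260.4, 396, 382 and 296 CPM in pFUS_UC, 274, 315, 282 and 200.002 CPM in UC, and 123, 99.4, 100.3 and 109 CPM in AKI kidneys. It rose by 1.63 (SE 0.17, adjusted p = 5.50e-05) in pFUS_UC and by 1.31 (SE 0.17, adjusted p = 7.05e-05) in UC against AKI, and was 1 of 9 members with a positive log2 fold change in pFUS_UC against UC (0.32, unadjusted p = 0.0733).

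Rps6, the small subunit protein that S6 kinases phosphorylate downstream of mTOR, rose by less than the median member. It was at 421, 447, 418 and 441 CPM in pFUS_UC, 516, 445, 492 and 492 CPM in UC, and 331, 343, 309.8 and 357 CPM in AKI kidneys. All 8 kidneys with cells lay above the 4 AKI kidneys, by 0.36 (SE 0.10, adjusted p = 0.00866) in pFUS_UC and 0.54 (SE 0.10, adjusted p = 0.000659) in UC on the log2 scale. These calls were lost with offsets for listed gene length, at 0.01 (adjusted p = 0.952) in pFUS_UC and 0.18 (adjusted p = 0.174) in UC, and with offsets for transcript length and GC content, at -0.09 (adjusted p = 0.48) in pFUS_UC and 0.07 (adjusted p = 0.601) in UC. With no filter on low counts Rps6 was at 0.33 (adjusted p = 0.0842) in pFUS_UC. With coding length offsets it was called in both, at 0.27 in pFUS_UC and 0.45 in UC. Rps15, which has the third-highest FPKM of the members, was at 551, 800.4, 835 and 649.8 CPM in pFUS_UC, 927, 807, 824 and 673 CPM in UC, and 331, 379, 394 and 414 CPM in AKI kidneys, a rise of 0.90 in pFUS_UC and 1.09 in UC against AKI. In pFUS_UC its call was lost with listed length offsets, at 0.22 (adjusted p = 0.199), and with transcript length and GC offsets, at 0.25 (adjusted p = 0.0778). Rps3, at the entry of the messenger RNA channel, was at 483 ± 74.5 CPM in pFUS_UC, 536 ± 47.7 in UC and 459 ± 24.6 in AKI kidneys (SD, n = 4 each) and did not pass the test in either comparison (adjusted p = 0.665 in pFUS_UC and 0.157 in UC).

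Among large subunit genes, Rpl23 was at 273, 392, 382 and 323 CPM in pFUS_UC, 484, 399, 406 and 325 CPM in UC, and 149.9, 147, 121 and 152 CPM in AKI kidneys. Rpl36a was at 137, 195, 189 and 151 CPM in pFUS_UC, 214, 188, 183 and 153 CPM in UC, and 79.4, 67, 54.7 and 69.9 CPM in AKI kidneys. Neither overlapped between the AKI kidneys and the others. Rpl23 rose by 1.26 (SE 0.15, adjusted p = 8.47e-05) in pFUS_UC and 1.501 (SE 0.15, adjusted p = 3.17e-05) in UC against AKI, and Rpl36a by 1.31 in pFUS_UC and 1.44 in UC. Rpl37, a zinc-binding protein of the large subunit, was at 198, 283, 272 and 250.1 CPM in pFUS_UC, 270.2, 250.3, 275 and 208 CPM in UC, and 114, 105, 96.6 and 109 CPM in AKI kidneys. Rpl37a, also zinc-binding, was at 364, 531, 489 and 428 CPM in pFUS_UC, 531, 516, 479 and 360.4 CPM in UC, and 197, 164, 165 and 185 CPM in AKI kidneys. Rpl31 was at 295, 462, 474 and 397 CPM in pFUS_UC, 498, 366, 368 and 375 CPM in UC, and 165, 156, 136 and 144 CPM in AKI kidneys. In all 3 genes AKI kidneys lay below all others, while pFUS_UC and UC kidneys overlapped. Their log2 fold changes against AKI were 1.24, 1.35 and 1.43 in pFUS_UC and 1.24, 1.41 and 1.42 in UC.

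Of the 3 stalk genes, Rplp1 and Rplp2 rose in both comparisons with AKI and Rplp0 was not called in either. Rplp1, which has the highest FPKM of the members, was at 892, 1324, 1286 and 1101 CPM in pFUS_UC, 1755, 1367, 1359 and 1120.1 CPM in UC, and 519, 573, 541 and 614 CPM in AKI kidneys. Rplp2, its partner in the stalk dimers, was at 353, 475, 473 and 429.5 CPM in pFUS_UC, 591, 534, 556 and 431 CPM in UC, and 209, 226, 239 and 263 CPM in AKI kidneys. Both genes lay above every AKI value in all 8 kidneys with cells. Rplp0, the base on which these dimers sit, was at 920.5, 962, 1025 and 807 CPM in pFUS_UC, 1213, 1005, 1135 and 1180.1 CPM in UC, and 836, 993, 911 and 1030.1 CPM in AKI kidneys, and its groups overlapped. Against AKI, Rplp1 rose by 1.04 (SE 0.16, adjusted p = 0.000376) in pFUS_UC and 1.32 (SE 0.16, adjusted p = 6.77e-05) in UC, and Rplp2 by 0.88 in pFUS_UC and 1.17 in UC. The log2 fold change of Rplp0 was -0.02 (SE 0.12, adjusted p = 0.903) in pFUS_UC and 0.27 (SE 0.12, adjusted p = 0.0937) in UC, neither called. These calls changed with the processing. In UC, Rplp0 was called higher with copies summed, at 0.35 (adjusted p = 0.0239), and with protein-coding genes only, at 0.34 (adjusted p = 0.0343). In pFUS_UC with listed length offsets Rplp0 was called lower, at -0.36 (adjusted p = 0.0351), and Rplp1 lost its call, at 0.28 (adjusted p = 0.116). With coding length offsets Rplp1 was called at 0.50 in pFUS_UC and 0.77 in UC. The difference between stalk genes was not tested; their coding lengths are 342 bases for Rplp1, 345 for Rplp2 and 951 for Rplp0.

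Rpl5 and Rpl11 form with 5S ribosomal RNA the particle that binds Mdm2 and stabilises p53 when ribosome assembly fails. Rpl5 was at 542, 541, 425 and 551 CPM in pFUS_UC, 703, 509, 628 and 639 CPM in UC, and 375, 348, 239.6 and 342 CPM in AKI kidneys. Rpl11 was at 415, 585, 605 and 520.1 CPM in pFUS_UC, 614, 556, 541 and 511 CPM in UC, and 273, 277, 227 and 273 CPM in AKI kidneys. Both rose in both comparisons without overlap with AKI. Rpl5 rose by 0.66 (SE 0.16, adjusted p = 0.00446) in pFUS_UC and 0.93 (SE 0.16, adjusted p = 0.000407) in UC, and Rpl11 by 1.02 (SE 0.13, adjusted p = 0.000129) in pFUS_UC and 1.08 (SE 0.13, adjusted p = 6.18e-05) in UC. Rpl36, the member with the second-highest FPKM, was at 421, 667, 700.0 and 559 CPM in pFUS_UC, 692, 675, 593 and 488 CPM in UC, and 240.2, 254, 273 and 295 CPM in AKI kidneys and rose by 1.14 in pFUS_UC and 1.21 in UC. With transcript length and GC offsets Rpl5 was at 0.34 (adjusted p = 0.0742) in pFUS_UC, and with listed length offsets Rpl36 was at 0.31 (adjusted p = 0.077), neither called. Rpl41, with the shortest coding sequence of the members at 75 bases, was at 746, 834, 681 and 758 CPM in pFUS_UC, 972, 778, 1085 and 819 CPM in UC, and 465, 484, 473 and 541 CPM in AKI kidneys. It rose by 0.62 (SE 0.13, adjusted p = 0.00216) in pFUS_UC and 0.90 (SE 0.13, adjusted p = 0.000162) in UC against AKI, a direction that turned under a coding length correction given below. It was not called in pFUS_UC with listed length offsets (0.14) or with transcript length and GC offsets (0.05), nor with the second of these in UC (0.28).

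Per length, the members spanned a wide range in the authors' FPKM, which divides by the listed gene length. Rplp1, Rpl36 and Rps15 had means over all 12 samples of 2081, 1276 and 1004 FPKM, and Rpl29, Rpl24 and Rps10 had 1.33, 1.503 and 1.60 FPKM. Rpl29 was at 1.47, 1.54, 2.14 and 1.58 CPM in pFUS_UC, 2.49, 2.64, 1.94 and 1.49 CPM in UC, and 1.11, 0.551, 0.419 and 0.612 CPM in AKI kidneys. Rpl24 was at 1.43, 1.65, 1.54 and 2.12 CPM in pFUS_UC, 2.93, 2.58, 2.2 and 0.962 CPM in UC, and 0.722, 0.606, 0.712 and 1.11 CPM in AKI kidneys. Rps10 was at 3.37, 4.74, 4.37 and 4.13 CPM in pFUS_UC, 7.79, 4.3, 6.12 and 4.38 CPM in UC, and 2.12, 1.27, 0.921 and 0.834 CPM in AKI kidneys. In these 3 genes 98.1, 84.3 and 97.4% of the counts on the gene and its near-identical copies lay on the copies, so the gene row holds a small part of them. Against AKI, Rpl29 had a log2 fold change of 1.32 in pFUS_UC and 1.66 in UC on the gene row and of 0.50 in pFUS_UC and 0.69 in UC with the copies added. Rpl24 had 1.09 in pFUS_UC and 1.45 in UC on the row and 1.19 in pFUS_UC and 1.63 in UC with copies. Rps10 had 1.69 in pFUS_UC and 2.13 in UC on the row and 0.70 in pFUS_UC and 0.93 in UC with copies, so the changes of Rpl29 and Rps10 were smaller with copies added. In pFUS_UC Rpl24 lost its call without any 1 of AKI replicates 2 and 3 and pFUS_UC replicate 4 (adjusted p = 0.0547 to 0.065), with no filter, with the replicate block and with each of the 3 length offsets on the gene row. In UC it lost its call with transcript length and GC offsets, at 0.87 (adjusted p = 0.0545), and without UC replicates 1 and 2 together, at 1.01 (adjusted p = 0.0791). Rpl29 lost its call in pFUS_UC with listed length offsets, at 0.83 (adjusted p = 0.056), with transcript length and GC offsets, at 0.81 (adjusted p = 0.0715), and with copies summed and coding length offsets, at 0.16 (adjusted p = 0.258).

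Ribosomal protein genes have many processed pseudogenes, intronless copies of their messenger RNA elsewhere in the genome. A search of the member coding sequences against GENCODE vM21 transcripts placed 978 rows of the count table as copies at 90% identity or more over at least 70% of the coding sequence, and 77 more by symbol; 74 members had a copy. Copies held 12.3 ± 0.646% of the counts on members and copies in pFUS_UC, 12.9 ± 0.79% in UC and 14.2 ± 1.09% in AKI kidneys (SD, n = 4 each). For 9 members most of these counts lay on copies, and for 16 under 1%.

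Rpl26 (chromosome 11) and Gm15772 (chromosome 5) show how close a copy can be. Their coding stretches differ at 2 of 435 positions, C177T and T288C (counted from 1 at the A of the start codon, the Rpl26 base first). The stretch from position 147 to 206 (GENCODE vM21, build GRCm38), 5′ to 3′, holds the first difference, in capitals.
Rpl26: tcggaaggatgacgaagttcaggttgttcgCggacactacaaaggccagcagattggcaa
Gm15772: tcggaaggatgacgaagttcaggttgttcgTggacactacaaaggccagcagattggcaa
Rps12 and Rps12-ps3 (chromosome 19) did not differ at any of 396 coding positions. Rps2 and Rps2-ps13 (X chromosome) differed at 7 of 879, and Rpsa and Rpsa-ps10 (chromosome 3) at 6 of 885.

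Rpl26 lies beside the exit of the peptide tunnel and also binds the p53 messenger RNA. It was at 211, 321, 25.7 and 5.56 CPM in pFUS_UC, 7.41, 5.1, 7.53 and 246 CPM in UC, and 125, 6.12, 3.73 and 4.51 CPM in AKI kidneys. The 4 libraries of each group fell far apart, with 4 of the 12 libraries above 100 CPM. Gm15772 was at 232, 353, 599.9 and 543 CPM in pFUS_UC, 753, 626, 626 and 281 CPM in UC, and 152, 290.4, 260.4 and 307 CPM in AKI kidneys. It was at its lowest in each group in a library where Rpl26 was high. With all copies summed, Rpl26 was at 447, 681, 629.9 and 553 CPM in pFUS_UC, 766, 636, 638 and 532 CPM in UC, and 279, 296, 265 and 311 CPM in AKI kidneys, and every library with cells lay above every AKI library. Its log2 fold change was 2.01 (SE 1.501, adjusted p = 0.296) in pFUS_UC and 0.93 (SE 1.47, adjusted p = 0.62) in UC on the gene row alone, and 1.005 (SE 0.15, adjusted p = 0.000253) in pFUS_UC and 1.16 (SE 0.15, adjusted p = 7.53e-05) in UC with copies summed.

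Rps2, a small subunit protein at the messenger RNA entry, was at 314, 286, 271 and 641 CPM in pFUS_UC, 355, 301, 6.78 and 15.6 CPM in UC, and 495, 274, 32.6 and 3.95 CPM in AKI kidneys. Its copy Rps2-ps13 was at 334, 292, 289 and 108 CPM in pFUS_UC, 439, 368, 594 and 522 CPM in UC, and 63.2, 337, 354 and 582 CPM in AKI kidneys. In pFUS_UC and AKI kidneys the copy was lowest in the library where Rps2 was highest, and in UC kidneys it was higher in both libraries where Rps2 was low. Summed over copies, Rps2 was at 686, 621, 602 and 809 CPM in pFUS_UC, 869, 712, 619.8 and 795 CPM in UC, and 609.7, 663, 584 and 610.1 CPM in AKI kidneys, with overlapping groups and a log2 fold change of 0.14 (SE 0.13, adjusted p = 0.421) in pFUS_UC and 0.28 (SE 0.14, adjusted p = 0.102) in UC. Rpsa, also known as the laminin receptor precursor, was at 873, 1231, 795 and 982 CPM in pFUS_UC, 1553, 856, 803 and 1064 CPM in UC, and 378, 211, 395 and 444 CPM in AKI kidneys on its row and at 968, 1358, 1277 and 1086 CPM in pFUS_UC, 1705, 1449.6, 1368 and 1175 CPM in UC, and 650.2, 774, 727 and 777 CPM in AKI kidneys with copies. Its rise was 1.44 in pFUS_UC and 1.58 in UC on the row, and 0.68 (SE 0.15, adjusted p = 0.00303) in pFUS_UC and 0.96 (SE 0.15, adjusted p = 0.000258) in UC with copies.

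**Figure D3:**
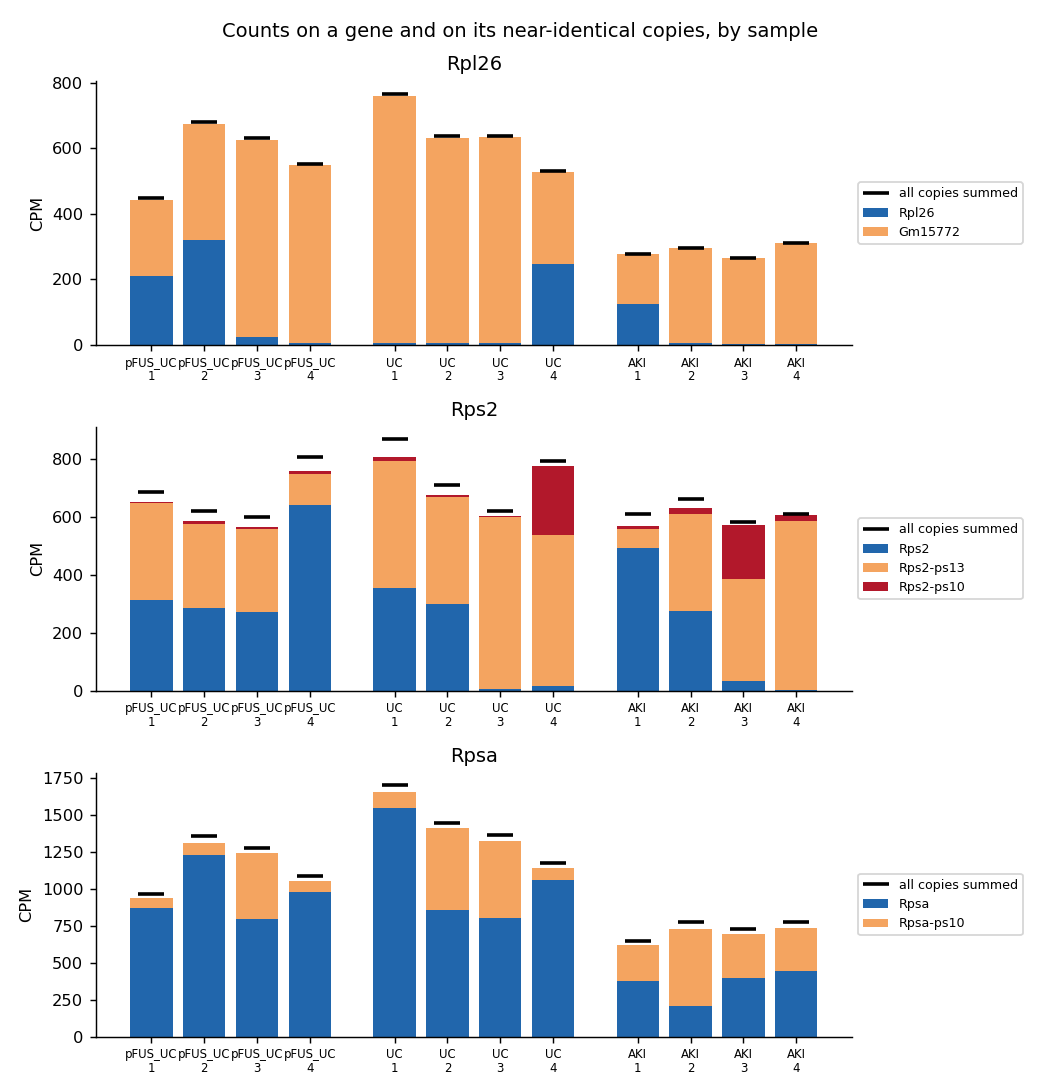
CPM (y axis) on the gene row (blue) and on its main near-identical copies (orange, red) in each sample (x axis, replicates 1 to 4 of pFUS_UC, UC and AKI) for Rpl26, Rps2 and Rpsa; black marks show the sum over all copies. The division between gene and copy differs from library to library, while the sums differ less within a group.

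Replicates of 5 members differed more than 3-fold within a group (Rpl21, Rpl24, Rpl26, Rpl35a and Rps2), and with copies summed none did, the largest ratio being 2.99. With copies summed, 67 of 76 members rose in pFUS_UC and 72 in UC against AKI, and none fell; 21.8% of all tested genes in pFUS_UC and 24% in UC were then called higher. Median log2 fold changes were 0.90 in pFUS_UC and 1.09 in UC. The 4 members not called in UC were then Rpl3, Rpl21, Rps2 and Rps3. Strandedness and the handling of reads that match several places are not given by these sources, so a gene and an overlapping or antisense gene cannot be told apart.

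**Figure D4:**
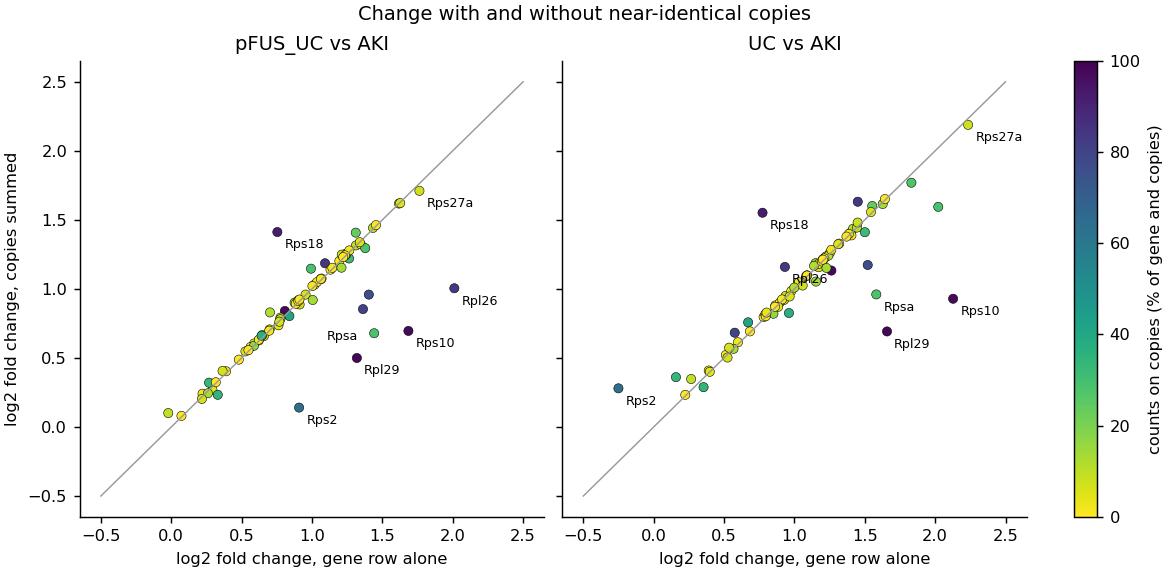
Log2 fold change with copies summed (y axis) against that of the gene row alone (x axis) for the 76 members in pFUS_UC against AKI (left) and UC against AKI (right); colour is the percentage of counts on copies and the line marks equality. Most members lie on the line, and those farther from it, such as Rps2, Rpl26, Rps10, Rpl29, Rps18 and Rpsa, carry 28.3 to 98.1% of their counts on copies.

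The rise was larger for members with a shorter coding sequence. Over the 76 members, Spearman's rho of the log2 fold change with coding length was -0.59 in pFUS_UC against AKI and -0.61 in UC against AKI. With copies summed it was -0.74 in pFUS_UC and -0.71 in UC, and Pearson's r with log2 coding length was -0.63 in pFUS_UC and -0.55 in UC. Within the large subunit rho was then -0.75 in pFUS_UC and -0.73 in UC (n = 46), and within the small subunit -0.70 in pFUS_UC and -0.58 in UC (n = 30). These correlations are across genes that share libraries and families, and describe these samples only. In pFUS_UC against UC rho was -0.26 with copies summed and -0.18 without.

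The gene length listed in the count table showed little of this: rho was -0.23 in pFUS_UC and -0.16 in UC against AKI. The listed length of a member was a median of 2.02 times the length of its principal transcript and 4.07 times its coding length, and its rho with coding length was 0.32. Rps24 is listed at 6256 bases with a coding length of 399, and Rps15a at 6270 with 390. Transcript length lay between (rho -0.28 in both comparisons), and GC content had a rho of -0.04 in pFUS_UC and -0.02 in UC.

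Other genes showed a trend of the same sign with coding length, with rho nearer to 0. Over 14057 other protein-coding genes, rho with coding length was -0.30 in pFUS_UC and -0.29 in UC against AKI. Their rho with transcript length was -0.37 in both comparisons, farther from 0 than among the members. Also farther from 0 than among the members, rho with listed length was -0.26 in pFUS_UC and -0.25 in UC over these 14057 genes. Relative to the mean of all libraries, expression of these genes had a rho with coding length of -0.25 to -0.07 in pFUS_UC, -0.25 to -0.16 in UC and 0.24 to 0.35 in AKI libraries. Among the members the same measure was -0.58 to -0.17 in pFUS_UC, -0.55 to 0.13 in UC and 0.48 to 0.61 in AKI libraries, with UC replicate 4 alone above 0 among the kidneys with cells. RNA integrity is not given in the sources used here. These length trends moved with the groups, and their part in the rise was not tested.

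Set beside genes of like coding length, members were higher in each length class. In pFUS_UC against AKI with copies summed, 9 members with coding sequences up to 300 bases had a median log2 fold change of 1.25, against 0.67 for 307 other genes. For 300 to 400 bases the medians were 1.15 (16 members) and 0.57 (416 others), and for 400 to 500 bases 0.91 (22) and 0.33 (495). From 500 to 600 bases they were 0.68 (8) and 0.22 (576), from 600 to 800 bases 0.41 (13) and 0.16 (1333), and from 800 to 1300 bases 0.54 (8) and 0.00 (3404). In UC against AKI the members' medians in these classes, short to long, were 1.28, 1.37, 1.16, 0.89, 0.61 and 0.75, and those of other genes 0.73, 0.61, 0.34, 0.26, 0.15 and -0.01. In pFUS_UC against AKI, 9 of 9, 16 of 16, 20 of 22, 7 of 8, 10 of 13 and 5 of 8 members rose in these classes, short to long, against 59.6, 55.0, 40.4, 33.3, 25.2 and 18.01% of the other genes. In UC against AKI, 9 of 9, 16 of 16, 21 of 22, 8 of 8, 12 of 13 and 6 of 8 members rose, against 59.0, 55.0, 42.2, 38.02, 28.5 and 20.3% of the other genes. Most other genes of up to 400 coding bases therefore rose in both comparisons as well.

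**Figure D5:**
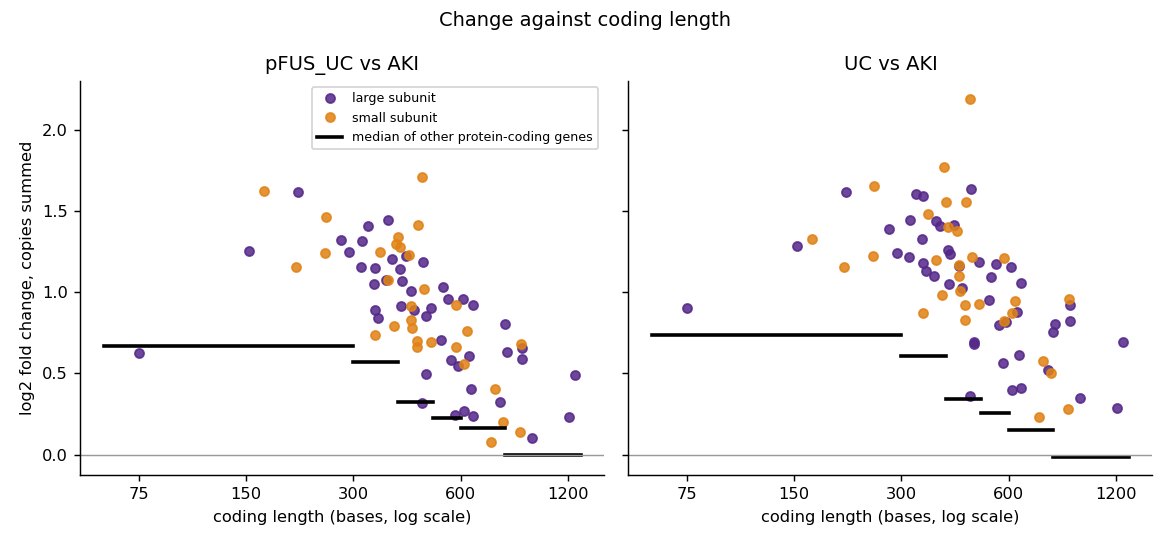
Log2 fold change with copies summed (y axis) against coding length (x axis, log scale) for the 76 members in pFUS_UC against AKI (left) and UC against AKI (right); black lines are medians of other protein-coding genes in the same length class. Points fall towards the right, and most lie above the line of their class.

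With offsets that remove each library's trend with coding length, an alternative added after the data had been seen, 55 members rose and 1 fell in pFUS_UC against AKI (median 0.56) and 62 rose in UC (median 0.70). Of all tested genes 21.3% in pFUS_UC and 24.6% in UC were then called higher. Genes without a coding length received no such offset. Of 14096 other protein-coding genes, 2569 in pFUS_UC and 3005 in UC were called higher. The member that fell was Rpl41, at -0.67 (SE 0.17, adjusted p = 0.0073) in pFUS_UC and -0.42 (adjusted p = 0.0537) in UC. Rps27a was at 1.41 in pFUS_UC and 1.87 in UC, Rpl38 was at 0.81 in both comparisons, and Rps29 at 0.71 in pFUS_UC. With offsets for listed length 49 members rose and 1 fell in pFUS_UC (median 0.64) and 62 rose in UC (median 0.77), where 18.2% of all tested genes in pFUS_UC and 21.2% in UC were called higher. With offsets for transcript length and GC content 41 rose in pFUS_UC (median 0.49) and 54 in UC (median 0.62), where 17% of all tested genes in pFUS_UC and 20.5% in UC were called higher.

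The 12 members not called in pFUS_UC against AKI were Rpl9, Rpl10a, Rpl21, Rpl23a, Rpl26, Rpl34, Rpl35a, Rplp0, Rps2, Rps3, Rps4x and Rps18. The 8 not called in UC against AKI were Rpl21, Rpl23a, Rpl26, Rpl35a, Rplp0, Rps2, Rps3 and Rps18. In pFUS_UC, Rpl34 was called with DESeq2, with protein-coding genes only, and without AKI replicate 1 or pFUS_UC replicate 4, and Rpl26 without AKI replicate 1, at 4.88 (adjusted p = 0.0338). Rpl35a was called with no filter in both comparisons, and in UC without AKI replicate 2 or UC replicate 3. With copies summed Rpl35a was called in both, at 1.41 (adjusted p = 0.00396) in pFUS_UC and 1.60 (adjusted p = 0.0015) in UC. Rpl34 was then called in pFUS_UC, at 0.84 (adjusted p = 0.000105). Rpl23a was called in UC with copies summed, at 0.36 (adjusted p = 0.0417). For Rps18 copies held 92.3% of the counts, and with copies its log2 fold change was 1.41 (SE 0.19, adjusted p = 0.000147) in pFUS_UC and 1.55 (SE 0.19, adjusted p = 5.83e-05) in UC.

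In pFUS_UC against UC, which asks what ultrasound added to the cells, no member passed the test, and edgeR called 0% of the 16947 tested genes. The median log2 fold change of the members was -0.19, against 0.00 over all tested genes, and 67 of 76 were below 0. Of all 16947 tested genes, 8546 were above 0. The members share the same libraries, so these are not 67 separate observations. At an unadjusted p under 0.05, 10 members were lower, against 3.94% of all tested genes, and none higher. Over all tested genes 1342 had such a p in either direction, and DESeq2 called 45 genes and no member. Rpl30, Rps7, Rpl9 and Rps19 were among the 5 members with the smallest p. Rpl30 was at 76.5, 191, 81.2 and 133 CPM in pFUS_UC, 171, 277, 289 and 248 CPM in UC, and 88.4, 35.5, 45.1 and 73.4 CPM in AKI kidneys. With copies summed Rpl30 was at 174, 259.9, 199.7 and 218 CPM in pFUS_UC, 299, 289.8, 309 and 264 CPM in UC, and 117, 84.4, 82.8 and 100 CPM in AKI kidneys, and no pFUS_UC value reached the UC values. Its log2 fold change was -1.03 (SE 0.32, adjusted p = 0.591) on the gene row and -0.45 (SE 0.14, adjusted p = 0.595) with copies. Rps7, which interacts with Mdm2, was at 255, 277, 264 and 271 CPM in pFUS_UC, 348, 330.4, 340.4 and 313 CPM in UC, and 171, 212, 139 and 162 CPM in AKI kidneys, and its pFUS_UC and UC values did not overlap on the gene row but did with copies summed. On the row its log2 fold change was -0.32 (SE 0.12, adjusted p = 0.597). Rpl9 was at 294, 325, 239 and 323 CPM in pFUS_UC, 398, 319, 402 and 343 CPM in UC, and 236, 262, 227 and 262 CPM in AKI kidneys, and pFUS_UC and UC values overlapped. The log2 fold change of Rpl9 was -0.31 (SE 0.13, adjusted p = 0.608). Rps19, the ribosomal protein most often mutated in human Diamond-Blackfan anaemia, was at 331, 590.4, 508 and 376 CPM in pFUS_UC, 765, 556, 579 and 544 CPM in UC, and 259, 308, 246 and 296 CPM in AKI kidneys, with a log2 fold change of -0.44 (SE 0.18, adjusted p = 0.61). For 4 members (Rpl4, Rpl6, Rpl15 and Rps7) all pFUS_UC values were below all UC values, 1.97% of all tested genes being so, and for none above. By library, the members' median log2 deviation from the mean of all 12 was -0.01, 0.43, 0.35 and 0.20 in pFUS_UC, 0.61, 0.40, 0.41 and 0.23 in UC, and -0.64, -0.63, -0.80 and -0.58 in AKI kidneys. The lowest kidney with cells, pFUS_UC replicate 1, also had the lowest mitochondrial share among the 8 (7.38%).

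Other parts of the translation machinery were described in lists chosen with earlier results of these data known; the median log2 fold change over all tested genes was 0.02 in pFUS_UC and 0.03 in UC against AKI. Of 10 tested ribosomal proteins and paralogs outside the naming rule, 5 rose in pFUS_UC and 7 in UC against AKI, where 21.9% of all tested genes in pFUS_UC and 24.1% in UC did. Rpl22l1, the paralog of Rpl22, was at 25.1 ± 4.55 CPM in pFUS_UC, 24.2 ± 2.48 in UC and 8.34 ± 1.93 in AKI kidneys. Rpl22l1 had log2 fold changes of 1.58 (adjusted p = 7.41e-05) in pFUS_UC and 1.53 (adjusted p = 4.95e-05) in UC against AKI. With transcript length and GC offsets Rpl22l1 was at 0.43 (adjusted p = 0.0547) in pFUS_UC and 0.39 (adjusted p = 0.0663) in UC, not called. Rack1, a scaffold protein on the small subunit, was at 595 ± 59 CPM in pFUS_UC, 685 ± 76.3 in UC and 480.3 ± 31.7 in AKI kidneys. Rack1 had log2 fold changes of 0.31 (adjusted p = 0.0495) in pFUS_UC and 0.51 (adjusted p = 0.00345) in UC against AKI. The call of Rack1 in pFUS_UC was lost without any 1 of AKI replicates 1, 2, 3 and 4 and pFUS_UC replicates 2, 3 and 4, with an adjusted p of 0.0579 to 0.149. It was also lost with DESeq2's size factors, no filter, only the 2 groups in the fit, the replicate block, coding length offsets and transcript length and GC offsets (adjusted p = 0.0517 to 0.347).

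Of 20 genes for elongation factors and other TOP messenger RNAs, 13 rose and 3 fell in pFUS_UC (median 0.34) and 13 rose and 2 fell in UC (median 0.44), against the 21.9% higher and 22.1% lower in pFUS_UC and 24.1% higher and 24.3% lower in UC of all tested genes. Naca, a nascent chain chaperone at the tunnel exit, was at 318 ± 39 CPM in pFUS_UC, 346 ± 49.3 in UC and 171 ± 12.6 in AKI kidneys. Naca had log2 fold changes of 0.89 (adjusted p = 0.000234) in pFUS_UC and 1.02 (adjusted p = 7.49e-05) in UC against AKI. Eef1d, an exchange factor for elongation factor 1A, was at 189.6 ± 26.9 CPM in pFUS_UC, 219 ± 26.8 in UC and 109 ± 8.56 in AKI kidneys. Eef1d had log2 fold changes of 0.79 (adjusted p = 0.000393) in pFUS_UC and 1.002 (adjusted p = 7.13e-05) in UC against AKI. Eef1a1, which brings aminoacyl-tRNA to the ribosome, was at 3782 ± 461 CPM in pFUS_UC, 4429 ± 508 in UC and 5030.4 ± 927 in AKI kidneys. Eef1a1 had log2 fold changes of -0.41 (adjusted p = 0.079) in pFUS_UC and -0.18 (adjusted p = 0.418) in UC against AKI. In pFUS_UC Eef1a1 was called lower with DESeq2, at -0.43 (adjusted p = 0.0185), without AKI replicate 3, at -0.54 (adjusted p = 0.0227), and with listed length offsets and transcript length and GC offsets, at -0.56 with each. Eef2, which moves the ribosome along, was at 1893 ± 183 CPM in pFUS_UC, 2048 ± 300.5 in UC and 2659 ± 340.2 in AKI kidneys. Eef2 had log2 fold changes of -0.49 (adjusted p = 0.0199) in pFUS_UC and -0.38 (adjusted p = 0.0569) in UC against AKI. Without AKI replicate 4 the adjusted p of Eef2 in pFUS_UC was 0.0692, and without pFUS_UC replicate 3 it was 0.0654. In UC Eef2 was called lower with DESeq2, at -0.39 (adjusted p = 0.0165), with listed length offsets, at -0.39 (adjusted p = 0.0473), and without AKI replicate 1 or UC replicate 4. Coding lengths are 645 bases for Naca, 843 for Eef1d, 1386 for Eef1a1 and 2574 for Eef2, and with coding length offsets Eef2 was at -0.26 in pFUS_UC (adjusted p = 0.167), and with transcript length and GC offsets at -0.28 (adjusted p = 0.124).

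Ribosome biogenesis genes moved in both directions. Of 32 tested, 5 rose and 6 fell in pFUS_UC (median 0.14), shares below those of all tested genes (21.9% higher and 22.1% lower). In UC 12 rose and 3 fell (median 0.16), where 24.1% of all tested genes were called higher and 24.3% lower; the balance of the list against all genes was not tested. Tsr1, a small subunit assembly factor, was at 6.52 ± 1.27 CPM in pFUS_UC, 5.99 ± 0.496 in UC and 13.5 ± 1.69 in AKI kidneys. Tsr1 had log2 fold changes of -1.05 (adjusted p = 0.000422) in pFUS_UC and -1.17 (adjusted p = 0.00016) in UC against AKI. Nip7, a large subunit assembly factor, was at 24.2 ± 2.23 CPM in pFUS_UC, 26.7 ± 2.8 in UC and 16.3 ± 1.3 in AKI kidneys. Nip7 had log2 fold changes of 0.57 (adjusted p = 0.00156) in pFUS_UC and 0.71 (adjusted p = 0.000287) in UC against AKI. Ncl, nucleolin, was at 216 ± 13.8 CPM in pFUS_UC, 212 ± 12.4 in UC and 159.7 ± 28 in AKI kidneys. Ncl had log2 fold changes of 0.44 (adjusted p = 0.0102) in pFUS_UC and 0.41 (adjusted p = 0.0126) in UC against AKI. The call of Ncl in UC was lost with no filter, at 0.37 (adjusted p = 0.0536), and without UC replicates 1 and 2 together, at 0.36 (adjusted p = 0.0948). Ubtf, an activator of ribosomal RNA transcription, was at 173 ± 16.2 CPM in pFUS_UC, 169 ± 11.7 in UC and 158 ± 8 in AKI kidneys. Ubtf had log2 fold changes of 0.13 (adjusted p = 0.29) in pFUS_UC and 0.10 (adjusted p = 0.414) in UC against AKI, not called. Ubtf was called higher in both with coding length offsets, at 0.33 (adjusted p = 0.0188) in pFUS_UC and 0.31 (adjusted p = 0.0229) in UC, and with transcript length and GC offsets, at 0.50 (adjusted p = 0.00198) in pFUS_UC and 0.49 (adjusted p = 0.00152) in UC. With listed length offsets it was called higher in pFUS_UC, at 0.28 (adjusted p = 0.0445).

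A list of 18 genes held regulators of TOP translation and of mTOR, activators and repressors together, as well as Myc and Mycn. Of these 18 genes, 3 rose and 7 fell in each comparison with AKI. Among all tested genes 21.9% rose and 22.1% fell in pFUS_UC, and 24.1% rose and 24.3% fell in UC. Mtor was at 110.1 ± 15.8 CPM in pFUS_UC, 107 ± 14.3 in UC and 168 ± 20.7 in AKI kidneys. Mtor had log2 fold changes of -0.61 (adjusted p = 0.00295) in pFUS_UC and -0.65 (adjusted p = 0.00172) in UC against AKI. Larp1, which binds the TOP tract, was at 112 ± 7.75 CPM in pFUS_UC, 122 ± 8.63 in UC and 152 ± 3.38 in AKI kidneys. Larp1 had log2 fold changes of -0.44 (adjusted p = 0.00172) in pFUS_UC and -0.32 (adjusted p = 0.0106) in UC against AKI. With coding length offsets Mtor was at -0.17 in pFUS_UC and -0.16 in UC, and Larp1 at -0.15 in pFUS_UC and 0.00 in UC, none of them called. Mtor also lost both calls with listed length offsets, at -0.38 in pFUS_UC and -0.38 in UC, and with transcript length and GC offsets, at -0.13 in pFUS_UC and -0.13 in UC. Larp1 lost both calls with transcript length and GC offsets, and the one in UC also with listed length offsets, at -0.14, and without UC replicates 1 and 2 together. Rps6kb2, an S6 kinase, was at 36.6 ± 6.63 CPM in pFUS_UC, 42.3 ± 5.46 in UC and 21.5 ± 1.53 in AKI kidneys. Rps6kb2 had log2 fold changes of 0.76 (adjusted p = 0.000729) in pFUS_UC and 0.97 (adjusted p = 0.000118) in UC against AKI. Eif4ebp2, a repressor of cap-dependent translation, was at 208 ± 18.8 CPM in pFUS_UC, 198 ± 13.3 in UC and 322 ± 30.2 in AKI kidneys. Eif4ebp2 had log2 fold changes of -0.63 (adjusted p = 0.000582) in pFUS_UC and -0.70 (adjusted p = 0.000208) in UC against AKI. With transcript length and GC offsets both calls were lost, at -0.20 (adjusted p = 0.115) in pFUS_UC and -0.23 (adjusted p = 0.0613) in UC, and with coding length offsets the values were -1.12 in pFUS_UC and -1.21 in UC. Myc, a transcription factor that drives ribosome production, was at 9.88 ± 3.59 CPM in pFUS_UC, 17.4 ± 7.92 in UC and 17.5 ± 5.3 in AKI kidneys. Myc had log2 fold changes of -0.82 (adjusted p = 0.0592) in pFUS_UC and -0.01 (adjusted p = 0.979) in UC against AKI, not called in either. In pFUS_UC the adjusted p lay near the threshold. Myc was called lower there with DESeq2, no filter, only the 2 groups in the fit, the replicate block, listed length offsets, and transcript length and GC offsets (-1.002 to -0.81, adjusted p = 0.0206 to 0.0476), and without AKI replicate 3 or pFUS_UC replicate 1 (adjusted p = 0.0342 and 0.0485).

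Noncoding genes that host small nucleolar RNAs, many of them TOP transcripts, were higher as well. Of 11 tested, 11 rose in pFUS_UC (median 1.25) and 11 in UC (median 1.57) against AKI, where 21.9% of all tested genes in pFUS_UC and 24.1% in UC did. Of 14096 protein-coding genes outside the members, 2630 rose in pFUS_UC and 2906 in UC, a smaller share than of all tested genes. Tested genes that are not protein coding were therefore called higher more often than all tested genes. Gas5 was at 57.3 ± 8.59 CPM in pFUS_UC, 67.2 ± 21.9 in UC and 24.1 ± 8.38 in AKI kidneys. Gas5 had log2 fold changes of 1.25 (adjusted p = 0.00194) in pFUS_UC and 1.48 (adjusted p = 0.000507) in UC against AKI. Snhg8 was at 22.3 ± 4.61 CPM in pFUS_UC, 21.2 ± 3.03 in UC and 7.13 ± 1.42 in AKI kidneys. Snhg8 had log2 fold changes of 1.64 (adjusted p = 7.41e-05) in pFUS_UC and 1.57 (adjusted p = 5.15e-05) in UC against AKI. Snhg20 was at 49.6 ± 14.3 CPM in pFUS_UC, 54.5 ± 11.8 in UC and 9.13 ± 4.87 in AKI kidneys. Snhg20 had log2 fold changes of 2.44 (adjusted p = 0.000132) in pFUS_UC and 2.58 (adjusted p = 6.80e-05) in UC against AKI. No gene of these lists was called in pFUS_UC against UC.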

How the data were processed

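RNA of 12 mouse kidney samples was sequenced in 3 groups of 4, and groups were taken from the sample titles. Raw counts per gene, as the authors made them, are in 1 deposited table. A second deposited table holds the authors' FPKM values for the same genes. The submitters' processing notes name HTSeq, DESeq2 and the build GRCm39, without versions; the aligner is not given in the sources used here. Reads that match several places, such as a gene and its pseudogenes, and the listed gene length behind FPKM could both affect values.

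All 12 samples entered 1 fit in edgeR 4.0.16 (R 4.3.3): filterByExpr (minimum count 10, minimum total 15), TMM, the quasi-likelihood test (residual df 9) and Benjamini-Hochberg adjustment at 0.05. Adjusted p values come from it where no other tool is named. SE was taken as |log2 fold change| over the root of the F statistic. A count of 0 would allow up to 0.119 to 0.173 CPM (3 counts, counting error only). Transcript and coding lengths (stop codon left out) came from GENCODE vM21, matched by gene identifier for all 76 members; copies were found with BLAST+ 2.17.0. Sequences are from RefSeq and GENCODE. The fit was also run on simulated counts in which few genes changed, in UC alone, and no length trend was added. The data differ in both, so that run does not show how the fit behaves under such conditions.

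Alternatives were DESeq2 1.42.0, its size factors, TMM without members and mitochondrial genes, no filter, 1 CPM in 4 samples, only the groups compared, a replicate block, protein-coding genes only, offsets for listed length, limma 3.58.1 on log2(FPKM + 1) and log2(FPKM + 0.1), and leaving out each library or UC replicates 1 and 2. Offsets for coding length, for transcript length and GC content, and sums over copies were added after seeing the data. The members and lists were chosen with earlier results of these data known. Named members are the 5 with the smallest p per comparison, the 3 highest and 3 lowest in FPKM, the stalk proteins, Rps27a, Rpl5, Rpl11, Rps6 and Rpl41; Rps2, Rps3, Rps12, Rps18, Rpsa, Rpl26, Rpl28, Rpl38 and other members named with a value were chosen after their values were seen. Of each list the 2 genes with the smallest p, and Rack1, Fau, Eef1a1, Eef2, Larp1, Mtor, Myc, Ncl, Ubtf and Gas5, were named. Results of 2 genes that these rules name are not reported here.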

Additional observations from a re-analysis of the deposited data

Results flagged for a closer look

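Single libraries stood apart from the other 3 of their group in 13 of 111 groups of 4 values examined. The rule used would flag about 1 in 20 by chance. The 37 members examined include some chosen after their values were seen, so the count cannot be set against that rate. AKI replicate 3 was low for Rps24 (143.9 CPM), Rpl23 (121 CPM) and Rpl11 (227 CPM). pFUS_UC replicate 3 was low for Rpl5 (425 CPM) and high for Rpl29 (2.14 CPM). UC replicate 1 was high for Rpl31 (498 CPM) and Rps19 (765 CPM), and UC replicate 4 was low for Rpl38 (161 CPM). Rps2 was high in pFUS_UC replicate 4 (641 CPM), Rpl26 in UC replicate 4 (246 CPM) and AKI replicate 1 (125 CPM), and Rpl21 in pFUS_UC replicate 1 (76.3 CPM) and UC replicate 4 (36.9 CPM). The part of shared reads in these values was not tested.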

How the results depend on the processing

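Of 28 other settings, 23 were run for pFUS_UC against AKI and gave 41 to 67 members called higher. In UC against AKI 24 gave 54 to 72, and in pFUS_UC against UC 24 gave 0. The lowest counts, 41 in pFUS_UC and 54 in UC, came with offsets for transcript length and GC content. There 17% of all tested genes in pFUS_UC and 20.5% in UC were called higher, against 21.9% and 24.1% in the main fit. Leaving out 1 library at a time gave 59 to 64 members in pFUS_UC and 66 to 68 in UC, and 5945 to 7740 genes in pFUS_UC against AKI, 7090 to 8443 in UC against AKI and 0 to 1 in pFUS_UC against UC. Without UC replicates 1 and 2 together, 5414 genes were called in UC against AKI. In pFUS_UC against UC, DESeq2 called 45 genes, no filter 13 and the replicate block 2. With the replicate block, 60 members in pFUS_UC and 67 in UC against AKI were called higher. Over all tested genes 7044 in pFUS_UC and 7791 in UC were then called in either direction. Deviations of samples with the same number correlated from -0.166 to 0.147, so the numbers were not taken to pair them. In UC against AKI the median log2 fold change of all genes was 0.12 with DESeq2, which was run on every gene with a count. It was 0.09 in edgeR with no filter, and 0.03 with DESeq2's size factors on the filtered genes.

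Values that changed sign were not called, except Rpl41 in pFUS_UC; the cause was not tested. With coding length offsets, on gene rows and then with copies summed, Rpl41 was at -0.67 and -0.67 in pFUS_UC and -0.42 and -0.43 in UC. Rpl23a was at -0.076 and -0.032 in pFUS_UC and -0.20 and -0.0059 in UC. Rps3 was at -0.032 and -0.032 in pFUS_UC. Larp1 was at 0.0029 and 0.0029 and Myc at 0.0932 and 0.0933 in UC. With copies summed Rplp0 in pFUS_UC was at 0.10 (0.084 with the offset) and Rps2 in UC at 0.28 (0.24). With transcript length and GC offsets, Rpl23a was at -0.38 in pFUS_UC and -0.49 in UC, and Larp1 at 0.021 in pFUS_UC and 0.18 in UC. Rps6 was then at -0.092 and Rps3 at -0.015 in pFUS_UC. With listed length offsets, Rpl23a was at -0.31 in pFUS_UC and -0.41 in UC, and Rplp0 at -0.074 in UC. With 1 CPM in 4 samples, Rplp0 was at 0.0025 in pFUS_UC and Myc at 0.0093 in UC, and with protein-coding genes only Rplp0 was at 0.049 in pFUS_UC and Myc at 0.059 in UC. Leaving out 1 library at a time gave -0.079 to 0.040 for Rplp0 and -1.14 to 1.79 for Rpl21 in pFUS_UC, and -0.37 to 0.16 for Myc, -0.91 to 0.71 for Rps2, -0.90 to 0.999 for Rpl21 and -2.39 to 3.80 for Rpl26 in UC. Without UC replicates 1 and 2, Rps2 was called lower in UC (-4.17, adjusted p = 0.0448).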
